A study of Saccharomyces cerevisiae with 24 samples.

Results

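The 7 genes of galactose use, GAL1, GAL10, GAL7, GAL2, GAL3, GAL80 and GAL4, were described here in the genome annotation of budding yeast strain W303 that the authors deposited with a ChIP-seq series. Members were the features of class gene that carried one of these gene names, and each name was found once, giving 7 of 5630 open reading frame (ORF) features. The series holds 24 libraries in 12 groups of 2. Uls1-FLAG, a tagged Snf2-family DNA translocase, was immunoprecipitated from wild-type (WT) cells given 100 µM acriflavine (ACF, a DNA-intercalating dye) for 2 h and from untreated WT cells. Top2-HA, DNA topoisomerase II from a tagged TOP2 copy present in addition to the TOP2 gene and driven by the TOP2 promoter, was immunoprecipitated from uls1Δ and WT cells given 250 µM ACF for 2 h and from untreated uls1Δ and WT cells. Each immunoprecipitate has an input, all cells were W303 and all were grown in YPD, a rich medium with glucose as its sugar. No library values were analysed here, so the measurements below are positions, lengths and sequence matches, which carry no replicate error and were given no test.

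Galactose is used through the Leloir pathway, in which galactose enters the cell, is phosphorylated, and is turned into a glucose phosphate that feeds glycolysis. The pathway genes are among the best known switches of transcription in yeast. Without galactose the inhibitor Gal80 masks the activator Gal4, with galactose the sensor Gal3 holds Gal80 back, and glucose represses the system through Mig1 and related factors. The cells of this series grew in glucose, a condition in which the system is known to be repressed. How far each member was repressed was not measured here. The genes that encode the precipitated proteins, TOP2 on chromosome 14 and ULS1 on chromosome 15, lie on chromosomes that hold none of the 7 members.

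Gal4 binds as a dimer to paired CGG and CCG triplets separated by 11 bases of any kind, and this motif was searched on both strands, which read it alike. The W303 sequence was not read here. The bases below are those of the S288C reference, build R64 from RefSeq, on the strand of the gene named, with the triplets of each match in capitals and negative positions counted back from the start codon. They are shown because these stretches hold every match found outside other genes within 500 bases of a member's start codon.
GAL1, from base -473 to -330 of its start, in the gap shared with GAL10 (chr2:278548-278691, plus strand): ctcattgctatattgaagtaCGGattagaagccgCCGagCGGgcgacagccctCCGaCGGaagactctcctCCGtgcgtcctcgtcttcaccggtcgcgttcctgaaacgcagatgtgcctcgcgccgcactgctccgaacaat
GAL7, from base -212 to -76 of its start (chr2:275603-275739, minus strand): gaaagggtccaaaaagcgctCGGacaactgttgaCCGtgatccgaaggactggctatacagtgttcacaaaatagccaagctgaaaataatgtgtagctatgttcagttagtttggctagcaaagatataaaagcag
GAL2, from base -436 to -292 of its start (chr12:289776-289920, plus strand): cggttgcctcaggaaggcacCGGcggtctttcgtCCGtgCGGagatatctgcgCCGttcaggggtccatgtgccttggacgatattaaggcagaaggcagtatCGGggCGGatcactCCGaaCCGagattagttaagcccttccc
GAL3, from base -308 to -252 of its start (chr4:463126-463182, plus strand): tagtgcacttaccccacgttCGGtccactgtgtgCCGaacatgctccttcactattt
GAL80, from base -192 to -136 of its start (chr13:171402-171458, plus strand): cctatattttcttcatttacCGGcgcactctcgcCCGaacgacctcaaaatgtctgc
The stretch between GAL1 and GAL10 held 3 matches, separated by 2 bases and by 1 base. GAL2 had 4 matches, of which the last pair overlapped, and GAL7, GAL3 and GAL80 had 1 each.

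The 3 enzyme genes formed 1 cluster on the right arm of chromosome 2. In W303, build ASM216351v1, GAL7, encoding the galactose-1-phosphate uridylyltransferase, ran from 268984 to 270084 on the minus strand. GAL10, whose product combines UDP-galactose 4-epimerase with mutarotase, ran from 270810 to 272909 on the same strand. GAL1, encoding the galactokinase that phosphorylates galactose, ran from 273578 to 275164 on the plus strand. The cluster thus held a tandem pair, GAL7 and GAL10, and a divergent pair, GAL10 and GAL1, which share the gap between their start codons. It spanned 6181 bp, of which 77.5% was ORF, and no other feature of any class was annotated inside it. The spans of the 5581 nuclear runs of 3 neighbouring ORFs had a median of 5294 bp, and 66.5% of them were no longer than the cluster.

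The other 4 members stood alone, each on a chromosome of its own. GAL2, the galactose permease, lay on chromosome 12 at 305480 to 307204 on the plus strand. GAL3, the galactose sensor, lay on chromosome 4 at 462823 to 464385 on the plus strand. GAL80, the inhibitor, was found on chromosome 13 at 166189 to 167496, also on the plus strand. GAL4, the activator, was found on chromosome 16 at 249951 to 252596 on the minus strand. Of the 7 genes 4 were therefore on the plus strand and 3 on the minus strand, and GAL80 and GAL4 were the 2 members on left arms.

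All 7 members were noted as having the same size in S288C, against 90.7% of the 5630 ORF features with a size note. A count of 7 of 7 is close to that background. The lengths were 1587 bp for GAL1, 2100 bp for GAL10, 1101 bp for GAL7, 1725 bp for GAL2, 1563 bp for GAL3, 1308 bp for GAL80 and 2646 bp for GAL4. Each equalled the length of the S288C gene and of its coding sequence, which had a single exon in all 7. Among nuclear ORFs, with a median of 1230 bp, GAL7 was the only member below the median, and 43.9% of ORFs were no longer than it. GAL4 was the longest member, and 88.3% of ORFs were no longer. Equal length does not show equal sequence, and S288C itself is known as a strain with a defective gal2 allele.

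The gaps of the cluster were the same number of bases in both strains. GAL7 and GAL10 were 725 bp apart in W303 and in S288C, and GAL10 and GAL1 were 668 bp apart in both. The outer gaps were 723 bp to KAP104, a nuclear import receptor gene, on the GAL7 side and 835 bp to FUR4, the uracil permease gene, on the GAL1 side, again with no difference from S288C. These gaps were longer than the median of 387 bp over 5597 pairs of nuclear neighbours. Of all nuclear gaps 76.8% were no longer than that between GAL7 and GAL10 and 73.8% no longer than that between GAL10 and GAL1. Divergent pairs have longer gaps, with a median of 561 bp over 1398 pairs, and 59.7% of them had a gap no longer than GAL10 and GAL1. The 725 bp of GAL7 and GAL10 stood higher among the 2571 tandem pairs, whose median was 419 bp, since 77.7% of those were no longer. Chromatin was sheared to fragments of 250 to 500 bp in this study, so a single fragment is shorter than either inner gap.

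**Figure D1:**
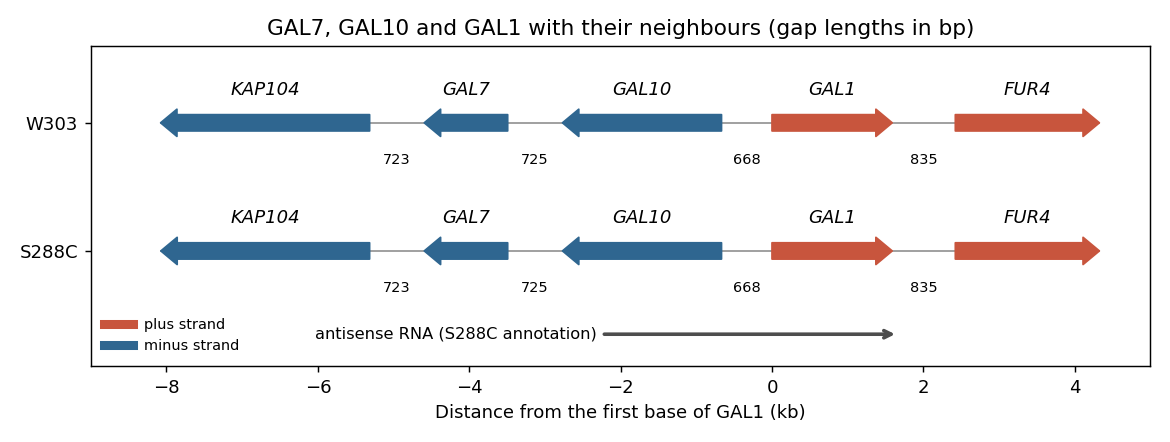
Map of the cluster and its neighbours in the W303 annotation (upper line) and in the S288C annotation (lower line), with the distance from the first base of GAL1 in kb on the horizontal axis. Arrows point in the direction of transcription and numbers give the gaps in bp, which are 723, 725, 668 and 835 in both strains. The thin arrow is the antisense RNA of the S288C annotation, which covers GAL1 and part of GAL10.

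**Figure D2:**
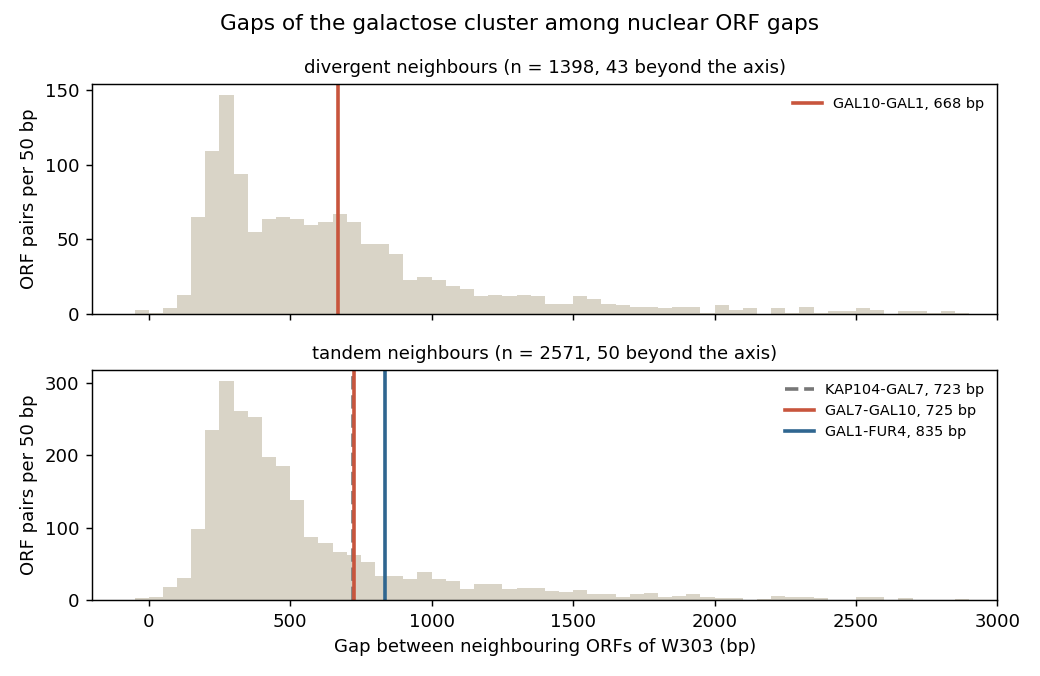
Histograms of the gaps between divergent (upper panel) and tandem (lower panel) neighbouring nuclear ORFs of W303, in bp on the horizontal axis and pairs per 50 bp on the vertical axis. Vertical lines mark the gaps of the cluster. The divergent gap of 668 bp lies inside the bulk of its class, and the tandem gaps of 723, 725 and 835 bp lie in the upper part of theirs.

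S288C has an antisense RNA annotated across the cluster on the plus strand, from 276805 to 280645. It covers 1548 bp of GAL10, the whole gap of 668 bp and the 1587 bp of GAL1, so it is antisense to GAL10 and has the same direction as GAL1. No feature of its name was found in the W303 annotation.

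The cluster lay closer to the centromere in W303. Its edge, the end of GAL7, was 28861 bp from CEN2 in W303, against 36103 bp in S288C, a difference of -7242 bp (W303 minus S288C). GAL7, GAL10 and GAL1 were themselves at 28.9, 30.7 and 33.5 kb from CEN2 in W303, distances that 8.14% to 9.30% of nuclear ORFs do not exceed. W303 had 15 ORFs between CEN2 and GAL7, against 18 in S288C. The 3 S288C genes with no W303 feature of their name were YBR012W-A and YBR012W-B, which belong to a Ty1 retrotransposon, and YBR013C. All 3 lie between IPP1, the inorganic pyrophosphatase gene, and GRX7, a glutaredoxin gene, and these were 1494 bp apart in W303, against 8749 bp in S288C. The difference between the strains in this interval was -7255 bp, and the rest of the way to CEN2 differed by 13 bp. W303 had no TKP/TY feature, the class of Ty elements, between CEN2 and the cluster. These genes were chosen after their values were seen.

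Of the other members, GAL3 was nearest to a centromere. It was 13612 bp from CEN4 in W303 and 13612 bp in S288C, and 4.01% of nuclear ORFs were as near or nearer. GAL2 was 146 kb from CEN12 in W303, against 139 kb in S288C, and GAL80 was 101 kb from CEN13 in W303, against 95.1 kb in S288C. GAL4 was 474212 bp from CEN16 in W303, against 473600 bp in S288C, and 82.6% of nuclear ORFs lie no farther from their centromere. The genes of the switch thus included both the member nearest to a centromere and the member farthest from one.

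GAL3 and GAL1 are paralogues, and Gal3 senses galactose and ATP without phosphorylating galactose. In S288C the 528 residues of Gal1 and the 520 of Gal3 aligned over 520 residues, of which 384 or 73.8% were identical. Identity was 85.0% over Gal1 residues 201 to 300 and 67.0% over residues 1 to 100, the lowest of the stretches of 100. Over the same codons 68.6% of 1560 bases were identical. The alignment left 8 residues of Gal1 without a partner, 6 before the first aligned residue and 2 inside, placed at residues 171 and 172. In the bases below, 8 codons are shown on each side of that place, and capitals mark the 2 codons that only GAL1 has. They are shown because the known kinase-related difference between the proteins, a serine and an alanine missing from Gal3, lies there.
GAL1, bases 487 to 540 of the ORF (chr2:279507-279560, plus strand): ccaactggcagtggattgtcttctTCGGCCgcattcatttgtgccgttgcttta
GAL3, bases 469 to 516 of the ORF (chr4:463902-463949, plus strand): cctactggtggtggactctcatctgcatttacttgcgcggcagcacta
The codons in capitals read serine and alanine. Since the codons beside them also encode serine and alanine, the exact place of the break within this run is set by the alignment program. The W303 lengths of 1587 bp for GAL1 and 1563 bp for GAL3 differ by the same 8 codons.

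Gal4 motif matches were counted upstream of the members in S288C. In the window from 250 bases before to 50 after the start codon, 3 of 7 members had a match, GAL10, GAL7 and GAL80, against 1.35% of 6002 S288C genes. GAL1, GAL2, GAL3 and GAL4 had none in that window, which says only that these letters are not in it. Within 500 bases before the start codon all 7 had a match, against 2.98% of the 6002 genes. The members were picked for a pathway that Gal4 is known to control, so a high share among them is no independent result.

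The matches differed in number and place between members. The matches of GAL1 began at -453, -434 and -416. The same 3 matches began at -269, -251 and -232 from the start of GAL10, nearer to GAL10 than to GAL1. GAL7 had its match at -192, GAL80 at -172 and GAL3 at -288. GAL2 had matches at -416, -397, -333 and -328, with a further one at -530. Only 3 of the 6002 genes had 3 or more matches within 500 bases, and these were GAL1, GAL10 and GAL2. GAL1 and GAL10 count the same matches. GAL2 was the single gene with 4, a count that includes the overlapping matches at -333 and -328.

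GAL4 stood apart from the other members in the place of its matches. Its matches, at -470 and -825, both lay inside the neighbouring gene YPL247C, which ends 268 bp from GAL4 in both strains. The gap upstream of GAL4 itself held none. GAL4 also had no Mig1 core, searched as GTGGGG and GCGGGG, and no TATA box, searched as TATAAA, in that gap. This says only that these letters are not in it.

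**Figure D3:**
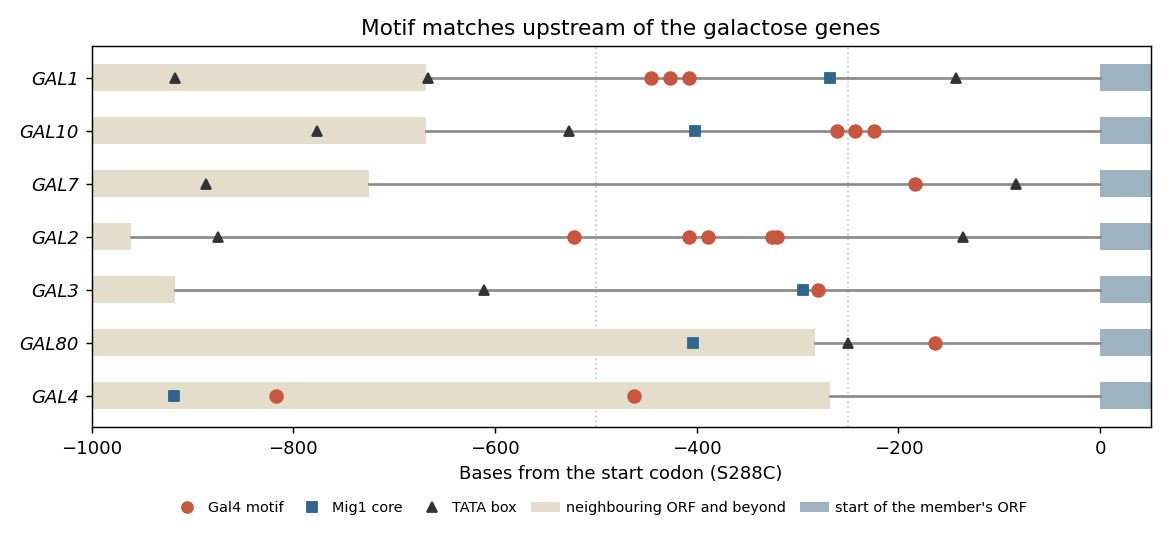
Matches of the Gal4 motif, the Mig1 core and the TATA box in the 1000 bases before the start codon of each member in S288C, with bases from the start codon on the horizontal axis and 1 row per gene. Lines are gaps, pale bars begin at the neighbouring ORF, and dotted lines mark 250 and 500 bases. GAL1 and GAL10 show the same 3 Gal4 matches in mirror order, and both GAL4 matches lie in the neighbouring ORF.

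For Mig1, the zinc finger repressor that acts in glucose, only the core forms GTGGGG and GCGGGG were searched, on both strands. Other forms of its site were not searched, so a missing match says only that these letters are absent. From 250 bases before to 50 after the start codon 0 of 7 members had a match, against 6.80% of the 6002 genes. Within 500 bases before the start codon 4 of 7 members had a match, against 13.6% of the 6002 genes. The members belong to a pathway that Mig1 is known to repress, so this share is no independent result. GAL1 had it at -270, and the same match lay at -404 before GAL10, between the Gal4 matches and GAL1. In GAL3 the match was at -297, with 3 bases between it and the Gal4 match. The match of GAL80, at -406, lay inside the neighbouring gene SUR7. The TATA box, searched as TATAAA on both strands, was found in 4 of 7 members from 250 bases before to 50 after the start codon, against 45.2% of genes. It lay at -145 in GAL1, -138 in GAL2 and -86 in GAL7, each on the strand of the gene. In GAL10 it ended on the first base of the start codon. Within 500 bases before the start codon 4 of 7 members had a TATA box, against 60.5% of genes.

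The part of the shared gap that holds the matches was richer in G and C than the gap as a whole. It was chosen for its matches, whose fixed bases are all G or C, so this is no independent result. The printed stretch between GAL1 and GAL10 was 59.7% G and C, against 35.9% over the whole gap. The ORFs were between 38.3% in GAL7 and 42.1% in GAL2, around the median of 39.8% over S288C ORFs.

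Of the 8 neighbours of the lone members, 6 were noted as the same size in S288C and 2, TRP1 and SUR7, as different, against 90.7% of ORF features noted the same. Beside the cluster, FUR4 was noted as the same size and KAP104 as different, with 2760 bp in W303 against 2757 bp in S288C. GAL3 lay between TRP1, a gene of tryptophan synthesis, and SNQ2, a drug pump gene. TRP1 was 150 bp long in W303, against 675 bp in S288C, and was noted as different, while its distance to GAL3 was 917 bp in both. The gap from GAL3 to SNQ2 was 922 bp in both, but in S288C it holds YDR010C, which was not found in the W303 annotation. GAL2 lay between EMP46, at 964 bp in W303 against 961 bp in S288C, and SRL2, at 456 bp in W303 against 457 bp in S288C. GAL80 lay between SUR7, encoding a protein of the plasma membrane domains called eisosomes, and AIM32. SUR7 was 579 bp long in W303, against 909 bp in S288C, and ended 624 bp from GAL80 in W303, against 283 bp in S288C. From the start of SUR7 to the start of GAL80 the strains differed far less, with 1203 bp in W303, against 1192 bp in S288C. GAL4 lay 357 bp from GYP5, a gene of a GTPase-activating protein, and 268 bp from YPL247C, in both strains.

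GAL2 was the only member with an annotated match to the ARS consensus, the sequence at which replication origins are bound, inside it. The W303 annotation marks this match at 306800 to 306811 on chromosome 12, beginning at base 1321 of the GAL2 ORF. A match is a description of letters, and origin activity was not tested. A search of the S288C GAL2 ORF found 1 match to the consensus, beginning at base 1321 as well. The feature is 12 bp long although the consensus has 11 bases. Of the 5613 nuclear ORF features, 77 had such a feature inside. In S288C a mapped origin, ARS1212, ends 767 bp before the GAL2 ORF, and it is a separate place from the match. For the cluster the nearest ARS feature was at 240093 to 240104, inside CEN2, and 28.9 kb from GAL7. The nearest ARS features were 12.6 kb from GAL3, 12.6 kb from GAL80 and 7.61 kb from GAL4. A tRNA feature, at 260922 to 260994, lay 7.99 kb from GAL7, and tRNA features were 23.8 kb from GAL3 at the nearest. No tRNA feature was annotated on chromosomes 12, 13 and 16, so no distance was given for GAL2, GAL80 and GAL4. The supplement of the paper reports fewer tRNA genes in this annotation than in the S288C reference. These tRNA distances and absences therefore hold for the annotation only, and tRNA genes that it lacks could lie nearer.

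In the W303 annotation GAL4 had other surroundings on its left side than in S288C. Its left edge, the end of the ORF, was 249950 bp from the left end of chromosome 16 in W303, against 79710 bp in S288C, a difference of 170240 bp. Of the 89 ORFs to the left of GAL4 in W303, 63 carried names of the S288C right arm and 26 names of the left arm. The right-arm names ran from MEP3, an ammonium permease gene, to YPR202W over 154 kb. They lay between THI21, a gene of thiamine synthesis, and YPL257W, which were 177819 bp apart in W303, against 8125 bp in S288C. The nearest edge of this block was 28.5 kb from GAL4, with 9 left-arm ORFs in between. That edge was a feature named YPR202W at 218339 to 221425, and the same name was also given to a feature at 193992 to 194516. The annotation also held 5 features of the repeated subtelomeric Y' elements between THI21 and YPL257W. The 154 kb and 28.5 kb therefore rest on a name used more than once. ARR3, the right-arm ORF before the first YPR202W feature, ended at 191756. Between nearest edges, MEP3 was 181 kb from GAL4 in W303, against 729 kb in S288C. On the right, all of the 10 nearest ORFs of W303 also lay within 30 kb of GAL4 in S288C. On the left 9 of 10 did, all but the YPR202W feature at the block edge. For the cluster genes and GAL3 this was 10 of 10 on both sides, and for GAL2 and GAL80 it was 10 on the left and 9 on the right. The genes of the block were named after their positions were seen.

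**Figure D4:**
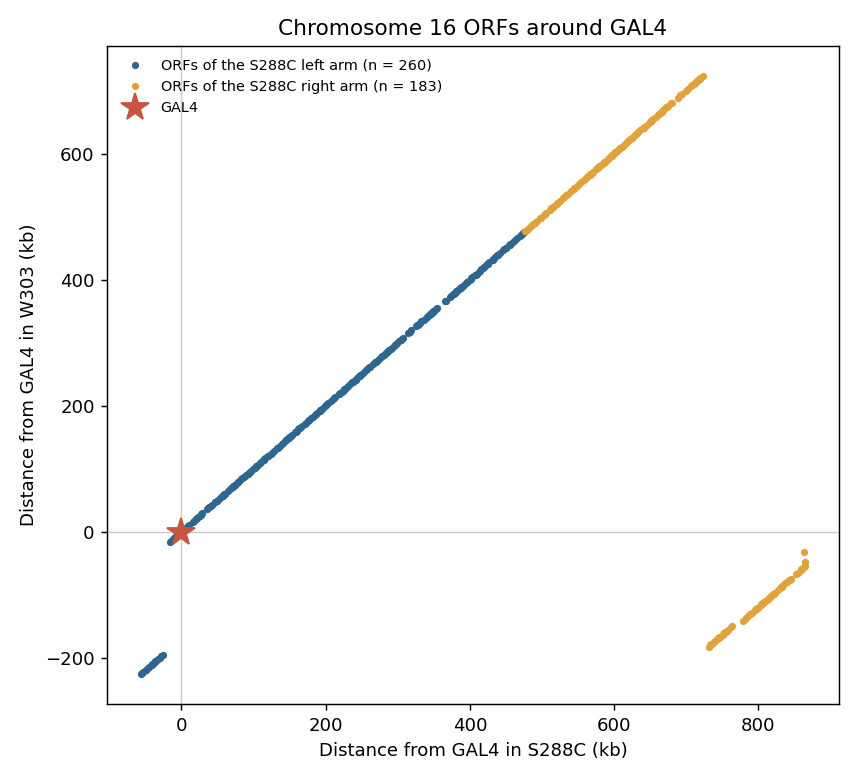
Position of each chromosome 16 ORF relative to GAL4, in kb, in S288C on the horizontal axis and in W303 on the vertical axis. Points are the 260 left-arm and 183 right-arm ORF features of W303 whose name is also in S288C. The name YPR202W is plotted more than once, against the same S288C gene. Positions are differences between start coordinates, not between nearest edges. To the right of GAL4 the points follow a single diagonal, and a block of right-arm ORFs, with MEP3 at -182.5 kb in W303 and 731.3 kb in S288C, lies to the left of GAL4 in W303 and far to its right in S288C.

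Peaks in this study were assigned to their nearest annotated feature, so the bases nearest to each member set how much of the genome would be credited to it. Over the 7 genes these came to 16578 bp, or 0.135% of the nuclear genome, and 4548 bp of them lay outside the ORFs. GAL4 had 2959 bp, GAL10 2797 bp, GAL3 2483 bp, GAL2 2435 bp, GAL1 2339 bp, GAL7 1826 bp and GAL80 1739 bp, against a median of 1771 bp over nuclear ORFs. GAL80 was the only member below that median. The ORF itself made up 89.4% of the bases of GAL4, the most among the members, and 60.3% of those of GAL7, the least. The gap between GAL10 and GAL1 was divided equally, with 334 bp to each. The 3 Gal4 matches printed above, which begin at -269 to -232 from GAL10, fall on the GAL10 side of that division in S288C, whose gap has the same length.

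**Figure D5:**
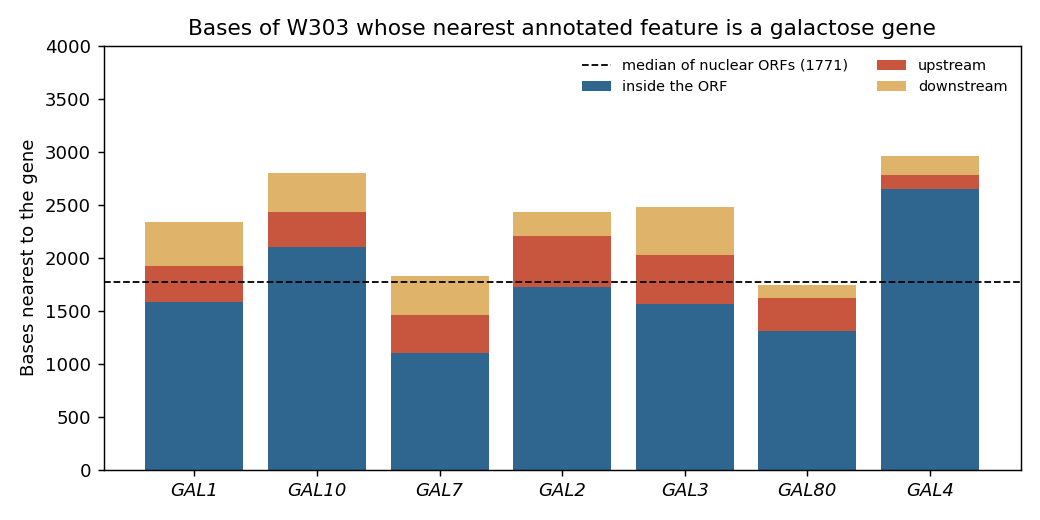
Bases of the W303 genome whose nearest annotated feature is each member, split on the vertical axis into bases inside the ORF, upstream and downstream, with 1 bar per gene. The dashed line is the median of nuclear ORFs, 1771 bp. GAL80, at 1739 bp, is the only bar below it, and GAL4, at 2959 bp, is the tallest.

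Of the ontology terms in the annotation, 5 were shared by 2 or more members. The term for galactose catabolism through UDP-galactose was given to GAL1, GAL10 and GAL7 and to no other of the 5630 ORF features. The term for galactose metabolism was carried by 5 features, namely GAL2, GAL3, GAL80, GAL4 and RBS1. The term for activation of transcription by galactose was shared by GAL3 and GAL4 with SSN2 and SSN3, genes of the Mediator complex. The broader terms were common in the annotation, since that for the nucleus, held by GAL3, GAL80 and GAL4, was on 1368 of the 5630 ORF features, and that for the cytoplasm, held by GAL1, GAL7, GAL3 and GAL80, was on 1522.

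Other genes of galactose use and known Gal4 targets were all present in the annotation, 8 of 8. PGM1 and PGM2, the phosphoglucomutases, and UGP1, the UDP-glucose pyrophosphorylase, which complete the pathway, were 1713, 1710 and 1500 bp long in W303 and in S288C. Of the 8, 7 had the size note for the same length, close to the 90.7% of all ORF features. LAP3, a peptidase gene, was 1452 bp in W303, against 1365 bp in S288C. FUR4 was the only gene of this list on chromosome 2, where it is the neighbour of GAL1. In S288C 4 of the 8 had a Gal4 match within 500 bases of the start codon, against 2.98% of the 6002 genes. The matches began at -151 in LAP3, -232 in PCL10, -369 in GCY1 and -469 in MTH1. PGM1, PGM2, UGP1 and FUR4 had none in that window. Part of this list was drawn from known Gal4 targets, so its share is no independent result.

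Of the 13 genes for Mediator, the Snf1 kinase and glucose repression, all were found and 12 had the size note for the same length, close to the 90.7% of all ORF features. SIP1, a subunit of the Snf1 kinase complex, was 2592 bp in W303, against 2448 bp in S288C. MIG1, the repressor gene, was 1515 bp and SNF1, the kinase gene, 1902 bp in both strains. GAL11, a Mediator subunit, and GAL83, another subunit of the Snf1 kinase complex, carry GAL names without being pathway enzymes, and they were 3246 and 1254 bp in both strains. In S288C 1 of the 13, MIG2, had a Gal4 match within 500 bases, at -375, against 2.98% of the 6002 genes.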

How the data were processed

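The file used was the W303 annotation that the authors deposited, made by them with the Yeast Genome Annotation Pipeline on assembly ASM216351v1, with names and size notes added from S288C. Its values are 1-based positions in bases and labels. They are of no other unit, and no library values were analysed here. Tools listed by the submitters, with no version, are bedtools, BWA, ChIPseeker, deepTools, MACS2 and SAMtools. S288C values came from the RefSeq annotation of R64, matched by systematic name, and no coordinate was carried from one build to the other. Gaps are the bases between neighbouring ORFs, and percentiles count values no larger. Pairs with an ORF of unknown strand entered no orientation class. The base nearest to a feature was found over all classes, ties counting for each. Proteins were translated from the S288C coding sequences, since no protein table was used here, and aligned with BLOSUM62, gap open 10 and extend 0.5, with free end gaps. Genes named are the members, their neighbours and centromeres, and 2 lists, with those picked after their values were seen so marked. Members and lists were chosen with earlier results of these data known. Gap and motif functions were tested on simulated data. Analyses used python 3.11.15, numpy 2.4.6, biopython 1.88 and matplotlib 3.10.9.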

Additional observations from a re-analysis of the deposited data

How the results depend on the processing

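The 7 lengths matched S288C by the size note, by gene length and by residues, the inner gaps were the same with features of any class and in S288C, and Gal1 and Gal3 were 73.8% identical with BLOSUM45 and with gap open 15 and extend 1. Against gaps of their own orientation the percentiles were 77.7 for GAL7 and GAL10, against 76.8 over all, and 59.7 for GAL10 and GAL1, against 73.8. With overlapping neighbours left out they were 76.7 and 73.7. The distance of the cluster to CEN2 was 32010 bp between midpoints and 36103 bp in S288C, against 28861 bp. Regions of 500 bases gave 16916 placements nearest to a member, against 16578 bases. Members with a Gal4 match numbered 7 with 500 bases and 7 with 1000 bases, against 3. The shares of all S288C genes with a match were 2.98%, 5.70% and 1.35% in that order. With spacers of 10 to 12 bases 3 members had a match, against 3.25% of S288C genes. Members with a match numbered 4 with 1 mismatch in the 6 fixed bases, an alternative chosen after seeing the data. That alternative matched 23.1% of S288C genes in the same window. Within 500 bases it gave 5 matches each for GAL1 and GAL10, 3 each for GAL7 and GAL80, 4 for GAL2, 2 for GAL3 and 1 for GAL4. There it matched 40.4% of S288C genes. The match numbers given earlier are thus of exact matches only. No paired analysis was possible because no library values were analysed here, and for the same reason no replicate could be left out. Depth does not bear on these values. Motif positions hold for S288C and were not read in W303.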
